A study of Homo sapiens with 27 samples.

Results

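This report sets insertions made with re-engineered piggyBac transposase against those made with parental piggyBac transposase, both acting on a transposon with wild-type ends. The members are 6 of the 27 libraries of the study, chosen by their labels: 3 libraries of the re-engineered and 3 of the parental enzyme. All 6 come from HCT116, an established human colorectal carcinoma cell line, transfected with a self-reporting transposon and selected with puromycin (3 µg/ml) over 2 weeks. The parental group, called piggyBac below, combined the wild-type transposon with piggyBac, and the other group combined the same transposon with re-engineered piggyBac. The labels do not say which changes make the enzyme re-engineered. The title of the study names phosphorylation at the N-terminus of the transposase and the asymmetry of the transposon ends as its subject. Both groups share the cell line, the transposon and the selection, and no library without transposase was used here. The labels do not say that replicates were separate transfections or cultures, so every p-value measures only the spread between these libraries, which may be technical. The identity of the cell line could not be checked against marker genes, since peak lists of insertions hold no expression values.

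The piggyBac element is a DNA transposon first found in a moth, and it is widely used to carry genes into mammalian cells. Its transposase cuts the element out of its donor, pastes it into the target sequence TTAA and restores that sequence when the element leaves. In mammalian cells it is known to insert more often near the starts of genes and in open chromatin than elsewhere. In a self-reporting transposon an internal promoter drives transcripts that run out of the element into the flanking genome, and the place of insertion is then sequenced from RNA.

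Each library was a list of peaks with chromosome, start, end, strand and height, the height being the maximum coverage of the peak. No listed peak was lower than 5. The last column of each list holds 1 constant, which was taken as the total of reads of the library although no label says so. These totals were 9532926, 8204478 and 9454727 for piggyBac and 11383590, 12051190 and 11636918 for the re-engineered enzyme, so every re-engineered library was deeper. After positions were read to the base, the piggyBac libraries listed 437446, 346918 and 420845 distinct sites and the re-engineered libraries 549765, 570354 and 542484. Per 1000000 of the file total this came to 45888, 42284 and 44512 sites for piggyBac and 48295, 47328 and 46617 for the re-engineered enzyme. The groups did not overlap in either measure. Peaks of height 50 or more made up 5.38%, 7.08% and 5.86% of peaks for piggyBac and 4.64%, 4.97% and 5.37% for the re-engineered enzyme. Since peak height and depth differ between the groups, the library measures and the counts of called genes, windows and starts were also computed at equal totals, at equal site numbers and on peaks of height 10 or more. The finer splits by distance, side, height, gene density and gene list were not computed under all of these.

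The target sequence could be read only in windows from 250 bases before to 50 bases after annotated gene starts, for which RefSeq promoter sequences of GRCh38.p14 were at hand. Of 34781 such windows, 46.1% contain TTAA on at least 1 strand (the motif reads the same on both), and they hold 28785 TTAA targets. The following stretches are shown because they were among the windows with the most insertions over the 6 libraries. Each is 30 bases long, in the direction of the gene, with 1 TTAA that was hit in capitals.
PRKACB: gtgctgttttataTTAAcaggaaacagaac
LINC00702: atgccaaactactTTAAgaatatatctgtg
GLMP: aaaggaaatttttTTAAaaagcaaatagtt
PDE4B: ttaaaggaaagatTTAAgggagagaaagga
The PRKACB stretch lies on chromosome 1 from 84144200 to 84144229, plus strand, with its target 58 bases before a start of this gene for a catalytic subunit of protein kinase A. The window around it held 3, 4 and 4 sites in the piggyBac libraries and 3, 3 and 2 in the re-engineered libraries. The LINC00702 stretch, before a noncoding RNA gene, lies on chromosome 10 from 4244076 to 4244105, minus strand, 180 bases before the start. The GLMP stretch lies on chromosome 1 from 156295731 to 156295760, minus strand, 68 bases before the start of a gene for a lysosomal membrane protein. The PDE4B stretch lies on chromosome 1 from 66331863 to 66331892, plus strand, 232 bases before a start of a gene for a cyclic AMP phosphodiesterase. Its target in capitals was listed in all 6 libraries, with heights of 73, 85 and 96 for piggyBac and 41, 6 and 41 for the re-engineered enzyme. The window holds 2 TTAA, and the other begins the stretch in small letters. The window had 2, 3 and 2 sites for piggyBac and 2, 2 and 2 for the re-engineered enzyme, so small letters do not mean that this TTAA was not hit. All 4 windows held sites in every library of both enzymes.

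A second set shows targets that separated the libraries, chosen after their values were seen for the greatest summed height among targets before coding gene starts. The first 3 were listed in all 3 piggyBac libraries and in no re-engineered library.
SEC14L1: ggctgcgacccctTTAAgtccggcttggat
SMAD3: gaaaagcatttttTTAAgacaactgactcc
COMMD4: ctttcctaatgtcTTAAttcggtcctcagt
The other 3 were listed in all 3 re-engineered libraries and in no piggyBac library.
PRKAG2: agcttcttgctacTTAAggacagccgggct
CERCAM: taataccctgacaTTAAcattaggttttca
ZNF688: aataatggcgcccTTAAgagcagcctgtga
The SEC14L1 target (chromosome 17, 77088547 to 77088576, plus strand) lies 125 bases before the start and had heights of 110, 148 and 95 in the piggyBac libraries. The SMAD3 target (chromosome 15, 67125654 to 67125683, plus strand), before a start of a gene for a signal carrier of the TGF-beta pathway, lies 75 bases upstream and had heights of 80, 89 and 126. The COMMD4 target (chromosome 15, 75335832 to 75335861, plus strand) lies 218 bases upstream. The PRKAG2 target (chromosome 7, 151736276 to 151736305, minus strand), before a start of a gene for a regulatory subunit of AMP-activated kinase, lies 29 bases upstream and had heights of 86, 31 and 57 in the re-engineered libraries. The CERCAM target (chromosome 9, 128418910 to 128418939, plus strand) lies 237 bases upstream, and the ZNF688 target (chromosome 16, 30571921 to 30571950, minus strand) 223 bases upstream. Targets of the first kind were the more numerous in the promoter windows, with 134 against 30. Over the whole genome the order was the reverse, with 5065 positions of the first kind and 8229 of the second. At equal site numbers the promoter windows held 179 against 8 and the genome 7525 against 2351. These are counts of positions chosen by their pattern and carry no test.

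The share of insertions on the TTAA letters differed by less than 1 percentage point. In the promoter windows, 98.2%, 98.0% and 98.2% of piggyBac sites and 97.3%, 97.6% and 97.6% of re-engineered sites lay on TTAA. These shares rest on 2168 to 2866 sites per library, and the 95% Wilson interval of the lowest, for re-engineered replicate 1, runs from 96.5% to 97.9%. The groups did not overlap, and the means differed by −0.63 percentage points. Of the 152 piggyBac and 167 re-engineered sites in these windows that were not on TTAA, 117 and 138 lay on 4 bases with 1 letter changed. TTAG and its reverse complement CTAA led, with 37 and 32 sites for piggyBac and 43 and 45 for the re-engineered enzyme. The base just before TTAA was T in 40.7% ± 0.77 of piggyBac targets and 40.4% ± 1.26 of re-engineered targets (SD, n = 3), against 38.2% of all TTAA in the windows. An A stood there in 15.996% ± 0.28 and 16.6% ± 0.18 (SD, n = 3), against 23.8% of all targets. A C stood there in 28.7% ± 0.51 and 28.9% ± 0.86, against 21.0% of all targets. In both groups C and T were thus more frequent and A less frequent before the hit targets than before all targets, with the larger gain in C.

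The clearest difference lay in how often insertions fell close to the start of a protein-coding gene. Starts on chromosome 8 were not used. Of the sites on the 22 chromosomes with start positions, 4.02%, 4.34% and 4.10% lay within 1 kb of a coding start for piggyBac, against 2.53%, 2.50% and 2.54% for the re-engineered enzyme. The means were 4.16% ± 0.17 and 2.52% ± 0.02 (SD, n = 3), a ratio of 0.607, and each re-engineered library lay below each piggyBac library. Within 5 kb the shares were 12.5%, 12.8% and 12.6% for piggyBac against 10.4%, 10.3% and 10.3% for the re-engineered enzyme. The exact two-sided permutation test gave p = 0.1 for both measures, the smallest value that 3 against 3 libraries allow, and adjusted p = 0.117 over 14 library measures. The 1-kb share was chosen after the data were seen, and the 5-kb share was planned.

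The ratio between the groups was lowest at the start itself and near 1 a few kilobases away. Sites within 100 bases of a start made up 0.270%, 0.298% and 0.269% for piggyBac and 0.147%, 0.146% and 0.147% for the re-engineered enzyme, a ratio of 0.525. The ratio was 0.553 in the next class, up to 250 bases, then 0.569 up to 500, 0.646 up to 1000 and 0.808 up to 2000 bases. Between 2000 and 5000 bases the shares were 5.35% ± 0.06 and 5.31% ± 0.06 (SD, n = 3) and the libraries overlapped. Between 5000 and 20000 bases the re-engineered enzyme had the higher share, 17.8% ± 0.13 against 16.9% ± 0.27 (SD, n = 3), and beyond 100000 bases the groups overlapped, at 33.2% ± 0.30 and 33.4% ± 0.31.

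**Figure D1:**
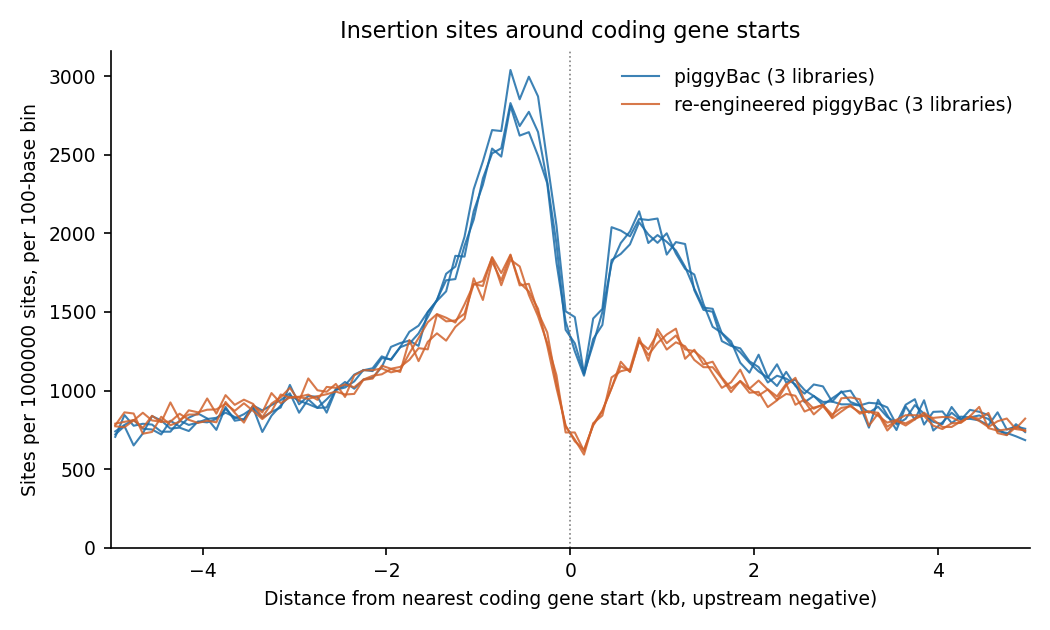
Insertion sites in bins of 100 bases, against the distance from the nearest coding gene start, 1 line per library. Values are per 1000000 sites of a library on the chromosomes with start positions. Both enzymes show a peak on each side of the start and a dip at it, the piggyBac lines lie above the re-engineered lines throughout the central kilobase on either side, and the lines run together at the edges.

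Both enzymes shared the shape of this profile. The upstream peak lay in the bin centred 650 bases before the start in both groups, with 2893 ± 127 sites per 1000000 for piggyBac and 1853 ± 18 for the re-engineered enzyme (SD, n = 3). The dip lay in the bin centred 150 bases after the start, with 1104 ± 8 and 611 ± 16. Upstream of the start, sites within 1 kb made up 2.43% ± 0.11 for piggyBac and 1.503% ± 0.01 for the re-engineered enzyme. Downstream they made up 1.72% ± 0.06 and 1.02% ± 0.01 (SD, n = 3). The strand of these insertions did not go with the enzyme: 32.4% ± 0.49 and 32.5% ± 0.21 of upstream sites, and 40.9% ± 0.95 and 40.8% ± 1.06 of downstream sites, lay on the strand of the gene.

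At the 3′ ends of coding genes the shares lay closer together. Among sites more than 5 kb from any coding start, 1.48% ± 0.04 lay within 1 kb of the 3′ end of a coding gene for piggyBac and 1.51% ± 0.02 for the re-engineered enzyme (SD, n = 3), and the libraries of the groups overlapped. As a share of all sites on these chromosomes the values were 1.296% ± 0.035 and 1.352% ± 0.016, higher with the re-engineered enzyme and without overlap. Within 250 bases of a 3′ end the shares of sites away from starts were 0.421% ± 0.010 and 0.421% ± 0.009. This split was added after the data were seen.

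Taller peaks lay more often near starts in both groups, and the groups were apart at every height. Among peaks of height 5 to 6, 2.84%, 3.397% and 3.08% of piggyBac sites and 2.06%, 2.07% and 2.18% of re-engineered sites lay within 1 kb of a coding start. Among sites of height 50 or more the shares were 9.43%, 8.68% and 8.98% against 4.87%, 4.52% and 4.68%. The ratio of group means was 0.678 in the lowest and 0.519 in the highest class, and the groups did not overlap in any of the 5 classes. With the same mix of height classes in every library the 1-kb shares were 4.05% to 4.22% for piggyBac and 2.52% to 2.57% for the re-engineered enzyme. At matched totals they were 4.13% to 4.34% and 2.63% to 2.65%. The share of sites close to starts was also lower at every gene density. In megabases with 16 or more coding genes it was 8.58% ± 0.49 against 5.32% ± 0.01, and in those with 1 to 5 it was 2.37% ± 0.11 against 1.41% ± 0.02 (SD, n = 3).

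**Figure D2:**
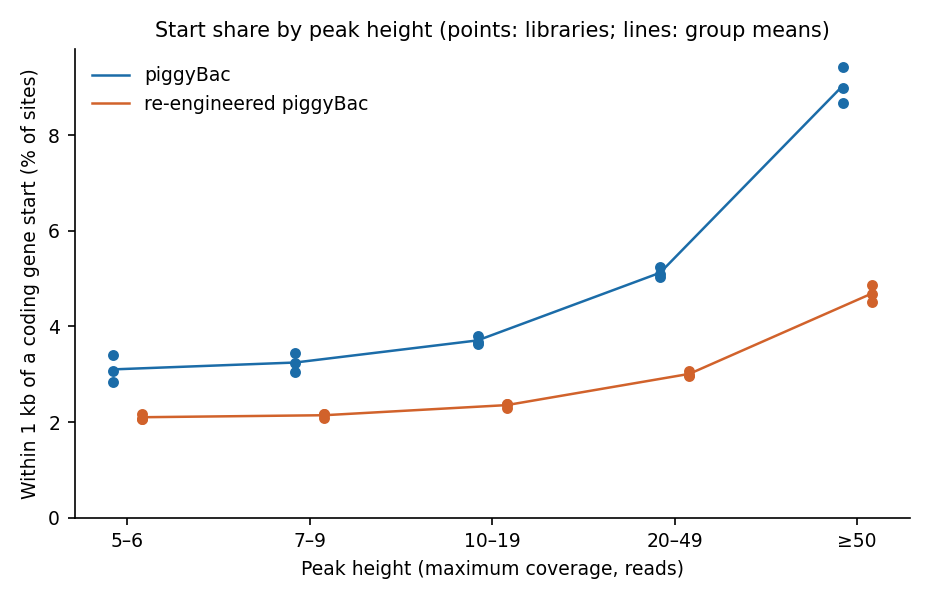
Share of sites within 1 kb of a coding gene start by class of peak height, with 1 point per library and lines through the group means. Shares rise with height for both enzymes, and in each class the 3 re-engineered libraries lie below the 3 piggyBac libraries.

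In the promoter windows themselves, piggyBac libraries listed 2866, 2473 and 2767 sites and re-engineered libraries 2219, 2259 and 2168, although the latter listed more sites in all. The piggyBac libraries hit 9.77%, 8.42% and 9.44% of the 28785 TTAA targets, the re-engineered libraries 7.50%, 7.66% and 7.35%. All sites in these windows, on TTAA or not, came to 7165 ± 343 against 4244 ± 40 (SD, n = 3). These values are per 1000000 sites on the 22 chromosomes with start positions. Coding windows with a site numbered 1872 ± 116 and 1394 ± 25.

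To see which genes carried the difference, sites within 2 kb of the starts of each coding gene were fitted with limma over the whole table, a fit added after the data were seen. Over all 15811 coding genes with a start position, these windows held 754 ± 21 of every 10000 sites for piggyBac and 516 ± 3 for the re-engineered enzyme (SD, n = 3), a ratio of 0.684. Only 1365 genes had a mean of 5 sites or more over the 6 libraries and were tested. A gene could meet this limit through the libraries of 1 group alone. Of these, 506 (37.1%) passed an adjusted p of 0.05, 503 of them lower with the re-engineered enzyme (36.8%) and 3 higher (0.22%). The median change over the tested genes was −0.48 on the log2 scale, and 1284 of them (94.1%) lay below 0. The scale here is the total number of sites. On a scale that sets the median gene to no change, which removes a shift common to most genes, 7 genes passed, 3 higher and 4 lower. Genes whose starts lie close together share sites in this count.

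The gene with the most sites near its starts was ZBTB20, which encodes a zinc finger transcriptional repressor. It had 69, 67 and 77 such sites in the piggyBac libraries and 49, 55 and 58 in the deeper re-engineered libraries, or 1.58, 1.93 and 1.83 against 0.891, 0.964 and 1.07 of every 10000 sites. The change was −0.84 ± 0.10 (log2, SE, limma adjusted p = 1.29e-08). PRKACB, whose window is printed above, fell by 0.61 on the log2 scale (limma adjusted p = 0.000113), and PDE4B by 0.62 (limma adjusted p = 0.00197). PALLD, for the actin-binding protein palladin, fell by 0.62, and ATF7IP, for a partner of a histone methyltransferase, by 0.71. The median over all tested genes was −0.48. At their smallest over the alternatives the changes were −0.26 for ZBTB20, −0.04 for PRKACB, −0.05 for PDE4B, −0.05 for PALLD and −0.14 for ATF7IP. In the same order, these genes were called under 14 of 15, 13 of 15, 12 of 14, 13 of 15 and 13 of 15 alternatives.

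The largest losses were in genes with few sites. Starts of TFPI, the inhibitor of the tissue factor pathway of clotting, held 11, 7 and 10 sites in the piggyBac libraries and 2, 5 and 3 in the re-engineered libraries (−1.45 ± 0.23, log2, SE, limma adjusted p = 2.9e-05). Starts of PLS3, for the actin-bundling protein plastin 3, held 11, 9 and 11 against 2, 4 and 6 (−1.44 ± 0.23, limma adjusted p = 2.25e-05). GPX8, for a peroxidase of the endoplasmic reticulum, held 10, 9 and 10 against 4, 4 and 4. In each of these 3 genes the libraries of the groups did not overlap. The same held, in the lower direction, for 702 of the 1365 tested genes (51.4%). The other genes among the 10 largest decreases were FBXO30, PSMG2, CYREN, WDR89, ADGRG6, LIPH and C9orf40, with changes from −1.55 to −1.20. All 10 met the limit of a mean of 5 sites over the 6 libraries only through their piggyBac counts. The sizes and p-values of these decreases are therefore only descriptive. The 3 genes called higher were PTPRE, for a receptor-type tyrosine phosphatase, ESR1, the estrogen receptor, and CYP19A1, the aromatase that makes estrogens. PTPRE starts held 2, 4 and 2 sites in piggyBac libraries and 7, 8 and 11 in re-engineered libraries (0.87 ± 0.30, log2, SE, limma adjusted p = 0.0216). ESR1 starts held 5, 1 and 3 against 7, 10 and 8, and CYP19A1 starts 3, 4 and 4 against 9, 8 and 10. These 3 genes met the limit of 5 sites only through the re-engineered libraries, which were also deeper. Their increases are therefore only descriptive. PTPRE was called under 6 of 10 alternatives, ESR1 under 5 of 11 and CYP19A1 under 4 of 12. Without re-engineered replicate 1, 2 or 3 the fit called 412, 352 and 373 genes, all of them lower.

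Lists of genes were described in the same windows, with all 85 ribosomal protein genes and the like counted whether or not they passed the filter. Starts of the 66 ribosomal protein genes with a position held 4.83 ± 0.25 of every 10000 sites for piggyBac and 3.27 ± 0.19 for the re-engineered enzyme (SD, n = 3), a ratio of 0.678, close to the 0.684 of all coding genes. Against 36.8% of all tested starts called lower, 5 of the 7 tested fell, among them RPS29 (−1.12 ± 0.22, log2, SE, limma adjusted p = 0.000362) and RPS3A (−0.83 ± 0.27, limma adjusted p = 0.0154). Starts of 437 ZNF genes had a ratio of 0.653, with 5 of 22 tested genes lower. The transcription factors of gut epithelium had 0.593, with KLF5 lower of 2 tested. KLF5, which acts in proliferating crypt cells, fell by 1.07 on the log2 scale (limma adjusted p = 5.56e-05). EHF was not called (−0.32, limma adjusted p = 0.161). Of every 10000 sites this list held 1.09 against 0.644, and KLF5 alone 0.449 against 0.192. Tumour suppressors had a ratio of 0.632, with CDKN1B, a brake on the cell cycle, SMAD3 and FBXW7 lower among 5 tested. The Wnt list had 0.660, with RNF43 lower of 2 tested, the giant genes of common fragile sites 0.612, with CTNNA3 and PARD3B lower of 4 tested, and the HOX genes 0.742, with HOXA9 lower of 3 tested. RAS and PI3K genes had 0.771 with 0 of 4 called, the transcription and chromatin list 0.689 with 0 of 2 and the casein kinase 2 and PGBD genes 0.794 with 0 of 1. Starts of the long neuronal genes held only 11 sites over the 3 piggyBac libraries and 12 over the 3 re-engineered libraries. The 314 olfactory receptor genes with a position held 1.80 ± 0.25 of every 10000 sites near starts for piggyBac and 1.99 ± 0.12 for the re-engineered enzyme (SD, n = 3), a ratio of 1.11, and 0 of them had enough sites to be tested. These genes are silent in most tissues outside the nose. The libraries of the groups overlapped for this list, and its difference from the other lists was not tested.

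The re-engineered insertions were also spread more evenly over the genome. In the 269 windows of 100 kb that held the most sites in the libraries of the hyperactive enzymes, which are not compared here, lay 7.46%, 7.98% and 7.52% of piggyBac sites and 6.07%, 6.001% and 6.05% of re-engineered sites. Thinned to 346918 sites each, the libraries filled the equivalent of 17956, 17832 and 17989 equally used windows for piggyBac and 18518, 18650 and 18656 for the re-engineered enzyme. The share of positions listed in both orientations was 5.64%, 5.39% and 5.57% against 4.78%, 5.01% and 4.90%. Each of these measures had non-overlapping groups and the smallest possible exact p of 0.1 (adjusted p = 0.117).

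Sharing of positions between libraries was also lower with the re-engineered enzyme. It cannot tell separate insertions at the same base from cells shared between libraries, since replicates are not labelled as separate cultures. At equal site numbers, a piggyBac library shared 18.2% of its sites with another piggyBac library (range over pairs 17.8% to 18.7%). A re-engineered library shared 11.6% with another re-engineered library (11.5% to 11.8%), and libraries of different enzymes shared 13.6% (13.2% to 14.0%). The groups differed by −6.59 points (exact permutation p = 0.1, adjusted p = 0.117). With all sites of the unequal libraries the value was −2.54 points. At equal site numbers 29380 positions were listed in all 3 piggyBac libraries and 10668 in all 3 re-engineered libraries. Of those positions, 12.02% and 7.44% lay within 1 kb of a coding start.

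**Figure D3:**
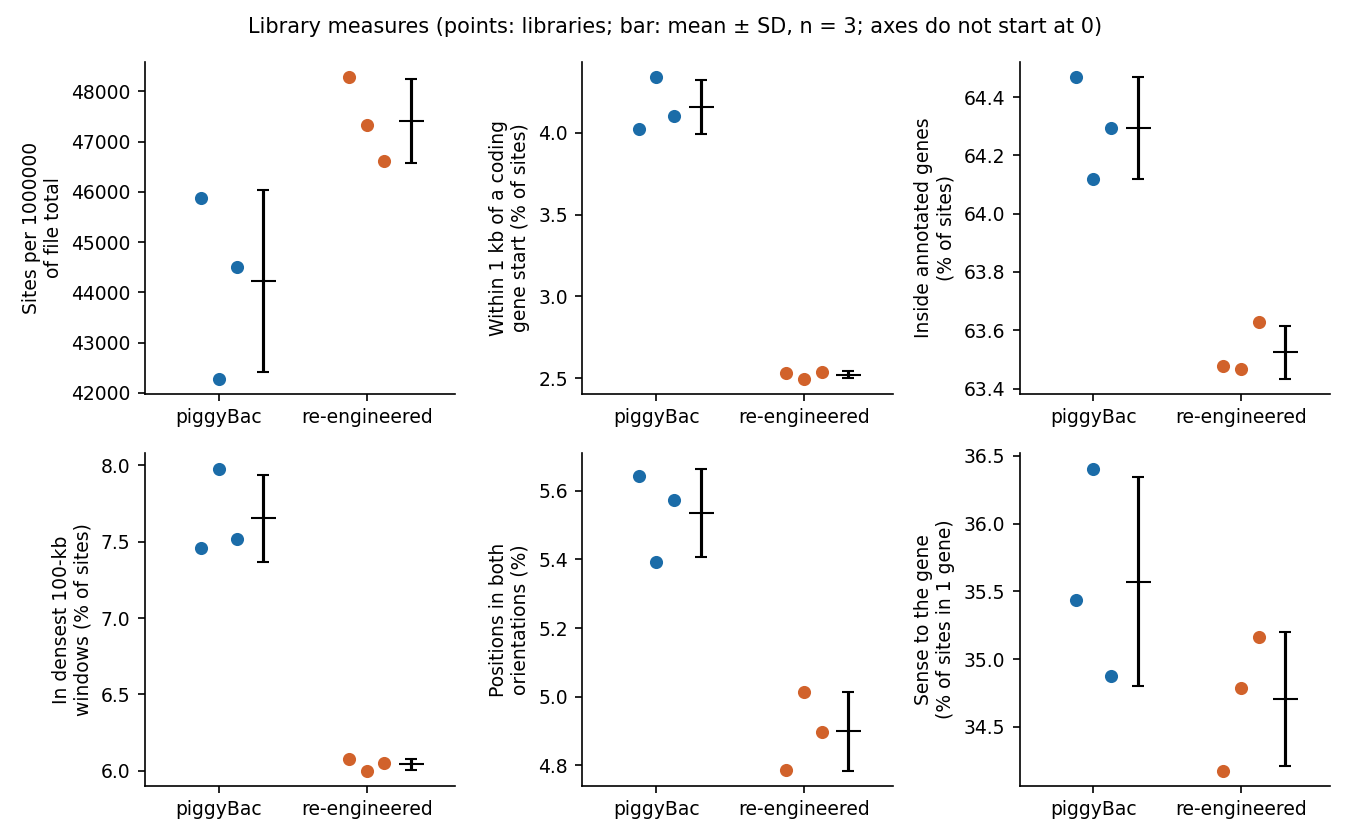
Library measures for the 3 piggyBac and the 3 re-engineered libraries, with 1 point per library and the mean ± SD beside them. The groups are apart in 5 of the 6 panels, and in the share of sites in the sense of the gene they overlap.

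Coarser measures of position differed little. Inside annotated genes lay 64.5%, 64.1% and 64.3% of piggyBac sites and 63.5%, 63.5% and 63.6% of re-engineered sites, groups that did not overlap. Within 5 kb of either end of any annotated gene lay 32.3%, 32.2% and 32.4% against 31.0%, 30.6% and 30.5%. More than 100 kb from any coding gene lay 15.7%, 16.2% and 15.8% against 15.5%, 15.9% and 15.9%, with overlap (exact permutation p = 0.6, adjusted p = 0.6), and without piggyBac replicate 2 the difference of −0.13 points became 0.03. Inside genes, 35.4%, 36.4% and 34.9% of piggyBac sites and 34.2%, 34.8% and 35.2% of re-engineered sites were in the sense of the gene, again with overlap (exact permutation p = 0.2, adjusted p = 0.215). Both enzymes were thus listed more often against the direction of the gene than along it.

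Across whole gene bodies, limma called 164 of 5974 tested coding genes (2.75%), 51 higher (0.854%) and 113 lower (1.89%) with the re-engineered enzyme, and 956 had an unadjusted p under 0.05. The median change over the tested genes was 0.02 on the log2 scale. The called genes were mostly shifted by less than a factor of 2, with a median size of 0.53 (log2) and a range from −1.14 to 1.18. The lower genes were densely hit, with a median of 0.539 sites per kb of gene, against 0.209 in the higher genes and 0.243 in all tested genes. With all sites within 2 kb of a coding start removed, 95 of the 113 lower genes and 30 of the 51 higher genes were still called. The number of calls was 75, 88 and 79 without re-engineered replicate 1, 2 or 3.

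The gene with the most insertions in both groups was PCDH7, which encodes a protocadherin, a cell adhesion protein (chromosome 4, 30720369 to 31146800, GRCh38). It held 1452, 1286 and 1379 sites in the piggyBac libraries and 1263, 1299 and 1278 in the re-engineered libraries, or 33.2, 37.1 and 32.8 against 22.97, 22.78 and 23.56 of every 10000 sites. The groups lay far apart, and the change was −0.57 ± 0.03 (log2, SE, limma adjusted p = 1.58e-24). This SE draws on the spread of other genes, while the piggyBac shares of PCDH7 itself had a mean of 34.3 and an SD of 2.37. The share was lower along most of the gene. In windows of 50 kb from its 5′ end the ratio of the re-engineered to the piggyBac share lay between 0.626 and 0.826, and the groups did not overlap in the first 8 of 9 windows. Exons and introns were not told apart.

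**Figure D4:**
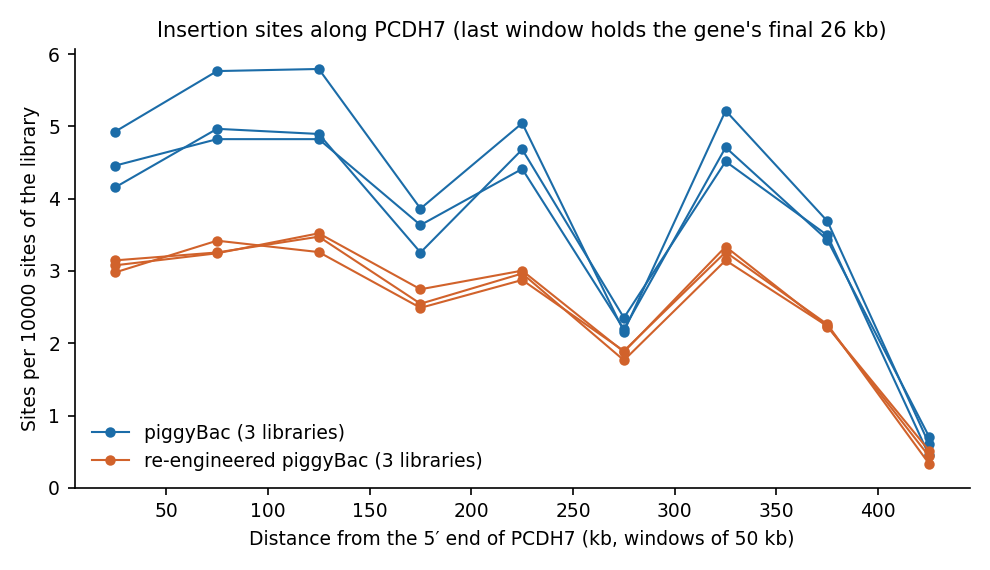
Insertion sites along PCDH7 in windows of 50 kb from its 5′ end, as sites per 10000 sites of each library, 1 line per library. The re-engineered lines lie below the piggyBac lines in the first 8 windows, the full window with the fewest sites runs from 250 to 300 kb in both groups, and the last window is the short end of the gene.

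Of the other 4 genes with the most sites, ZBTB20 (chromosome 3, 114314500 to 115147288) held 16.6, 17.4 and 16.8 of every 10000 sites for piggyBac and 11.44, 11.975 and 12.20 for the re-engineered enzyme (−0.51 ± 0.03, log2, SE, limma adjusted p = 1.53e-17). PALLD (chromosome 4, 168497052 to 168928441) held 13.5, 14.6 and 14.0 against 9.80, 9.45 and 9.57 (−0.54 ± 0.04, limma adjusted p = 8.35e-17). VTI1A, for a protein of vesicle fusion (chromosome 10, 112446988 to 112855368), fell by only 0.16 (limma adjusted p = 0.00345). It was called under 13 of 17 alternatives, with changes from −0.24 to −0.10. RAD51B, for a recombination repair protein (chromosome 14, 67819779 to 68683096), held 10.8, 10.6 and 10.8 against 11.11, 10.99 and 10.97 and was not called (0.03 ± 0.04, log2, SE, limma adjusted p = 0.715). Of these 5 heavily hit genes, 4 were called lower and 1 did not pass the test. PCDH7, ZBTB20 and PALLD were called under all 17 alternatives.

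Among called genes with a mean of 30 sites or more and non-overlapping groups, the largest decrease was in DOCK2, which activates the GTPase Rac in blood cells (chromosome 5, 169637275 to 170083382). It held 1.26, 1.56 and 1.54 of every 10000 sites for piggyBac and 0.764, 0.491 and 0.756 for the re-engineered enzyme (−1.09 ± 0.16, log2, SE, limma adjusted p = 1.78e-06). TFPI (chromosome 2, 187464230 to 187554435) held 1.19, 1.47 and 1.38 against 0.728, 0.684 and 0.793 (−0.83 ± 0.15, limma adjusted p = 0.00012). KITLG, which encodes the ligand of the receptor KIT (chromosome 12, 88492793 to 88580471), held 2.22, 2.19 and 2.38 against 1.18, 1.31 and 1.55 (−0.74 ± 0.11, limma adjusted p = 9.88e-06). DAB1, an adaptor of reelin signalling that spans 1552 kb (chromosome 1, 56994778 to 58546726), held 3.52, 2.59 and 2.57 against 1.55, 1.70 and 2.01 (−0.70 ± 0.11, limma adjusted p = 9.3e-06). These 4 were called under all 17 alternatives. The remaining genes among the 10 largest decreases were SPOCK1, PLD5, GNAT3, DRC11, TMEM244 and OR51B5, with changes from −0.73 to −0.67 and adjusted p from 0.000316 to 0.0147. DRC11 was called under 10 of 17 alternatives, TMEM244 under 12, PLD5 under 14, SPOCK1 under 16 and the other 2 under all. DRC11 and TMEM244 met the limit of 30 sites, a mean over both groups, only through their piggyBac counts.

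Under the same limits the largest increase was in RAD54B, which acts in recombination repair (chromosome 8, 94371960 to 94475115). It held 42, 25 and 33 sites in the piggyBac libraries and 87, 71 and 83 in the re-engineered libraries, or 0.960, 0.721 and 0.784 against 1.58, 1.24 and 1.53 of every 10000 sites (0.79 ± 0.14, log2, SE, limma adjusted p = 0.000226). CUX2, a homeobox transcription factor of cortical neurons (chromosome 12, 111034165 to 111350554), held 0.800, 0.721 and 0.808 against 1.44, 1.23 and 1.27 (0.73 ± 0.14, limma adjusted p = 0.000882). Both were called under all 17 alternatives. The other 8 were NCK2, IGFL2, UNC13B, KATNIP, MYOM1, ARSB, DNAH3 and HMGCLL1, with increases from 0.57 to 0.68 and adjusted p from 0.0136 to 0.0483. They were called under 6 to 12 of the 17 alternatives.

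**Figure D5:**
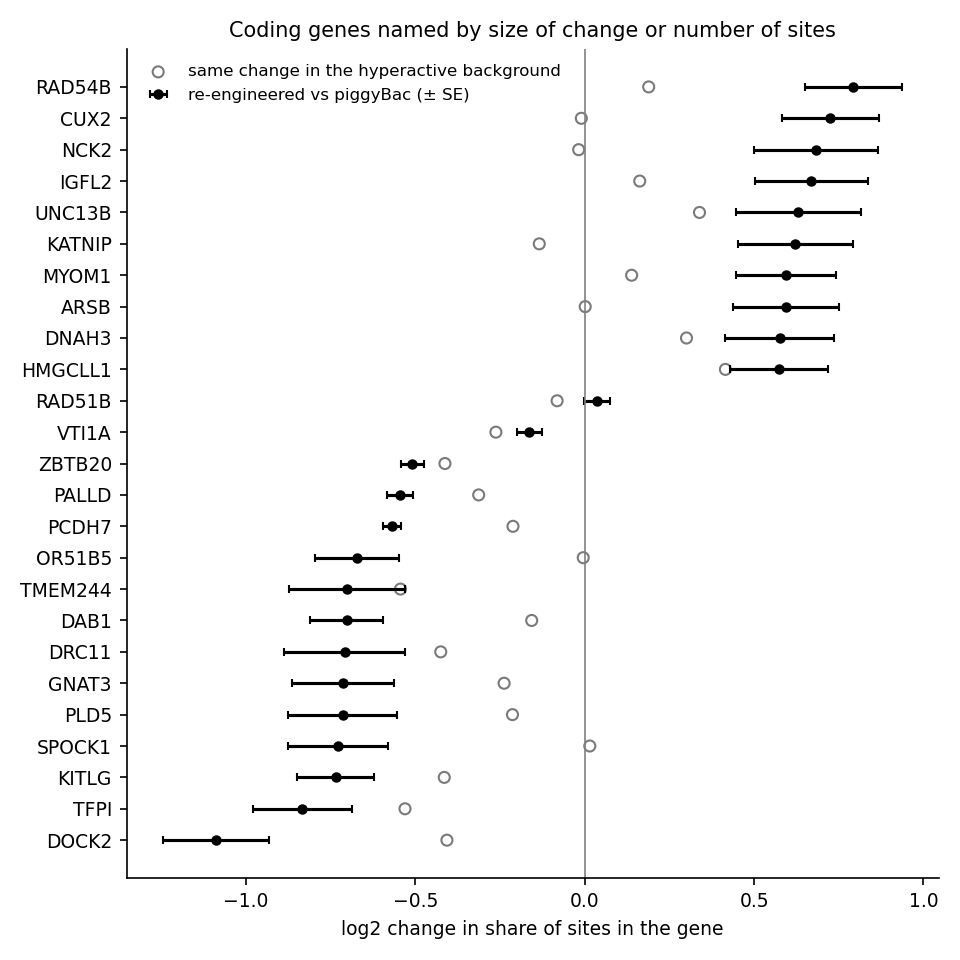
Change in the share of sites in each of 25 coding genes, as log2 of re-engineered over piggyBac with its SE (filled points), for the 5 genes with the most sites and the 10 largest called increases and decreases. Open circles give the change between the hyperactive forms of the enzymes. Most lie nearer to 0, but the increases and decreases were chosen for their size in the filled points. A weaker change in the hyperactive form therefore cannot be read from the circles. Of these genes only PCDH7 passed the test of the difference between the forms.

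The lists of genes gave few calls in gene bodies, against 0.854% higher and 1.89% lower in the background. Of 9 tested Wnt genes, TCF7L2, the main transcription factor of the pathway in gut cells, and RNF43, which removes Wnt receptors from the cell surface, fell. TCF7L2 (chromosome 10, 112950247 to 113167678) held 3.63, 4.01 and 3.71 of every 10000 sites against 2.69, 2.75 and 2.62 (−0.49 ± 0.08, log2, SE, limma adjusted p = 3.71e-05), and RNF43 fell by 0.46 (limma adjusted p = 0.00613). The median of the Wnt list was 0.09, against 0.02 for all tested genes. Of 5 gut transcription factors KLF5 fell, of 11 RAS and PI3K genes MET, a growth factor receptor, fell by 0.24 (limma adjusted p = 0.0495), and of 12 tumour suppressors SMAD3 fell by 0.33 (limma adjusted p = 0.0486). MET and SMAD3 were each called under 6 of 17 alternatives, KLF5 under 9 and RNF43 under 14.

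Of 15 tested giant genes of fragile sites, PARD3B, a polarity protein gene, fell by 0.48 (limma adjusted p = 0.00029) and LRP1B, a lipoprotein receptor gene, by 0.29 (limma adjusted p = 8.4e-05), and the median of the list was −0.13. Of 12 long neuronal genes 3 fell, among them PCDH7 and CDH13 (−0.51 ± 0.11, log2, SE, limma adjusted p = 0.00453), and CNTN5, a neural adhesion protein gene, rose (0.39 ± 0.12, limma adjusted p = 0.0499). CNTN5 was called under 4 of 17 alternatives, CDH13 under 14 and PARD3B under 16. Of the transcription and chromatin list 0 of 10 were called, with MED13L at −0.10 and ARID1B at 0.02, and of the casein kinase 2 and PGBD genes, the latter derived from piggyBac elements, 0 of 4, with CSNK2A1 at −0.09 and PGBD2 at −0.01. Of 3 tested ribosomal protein genes 0 were called, with RPS29 at −0.41 and the readthrough gene RPS10-NUDT3 at −0.05. Of 3 olfactory receptor genes OR51B5, annotated over 165 kb, fell, of 53 ZNF genes ZNF608 fell by 0.39 (limma adjusted p = 0.0465), and of 4 HOX genes the readthrough gene HOXA10-HOXA9 fell by 0.77 (limma adjusted p = 0.0265). ZNF608 was called under 7 of 17 alternatives and HOXA10-HOXA9 under 9 of 16. RPS10-NUDT3 and HOXA10-HOXA9 overlap neighbouring genes, and their sites cannot be told apart from those of the neighbours.

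In windows of 1 Mb, 324 of 2611 (12.4%) were called, 146 higher (5.59%) and 178 lower (6.82%), with a median size of 0.27 on the log2 scale. The number was 191 without re-engineered replicate 1 and 211 without re-engineered replicate 2. Windows called lower held a median of 3 coding genes, those called higher 6 and all tested windows 5. The changes of called windows ran from −1.03 to 1.01. Among called windows with a mean of 30 sites or more and non-overlapping groups, the largest loss was on chromosome 5 from 169 to 170 Mb, where SLIT3 and DOCK2 lie, with 134, 111 and 135 sites for piggyBac and 98, 90 and 107 for the re-engineered enzyme (−0.82 ± 0.10, log2, SE, limma adjusted p = 2.51e-09). Next came chromosome 1 from 57 to 58 Mb, within DAB1 (−0.82 ± 0.15, limma adjusted p = 2.89e-05), and the megabases from 152 and 155 Mb on chromosome 5 and from 31 Mb on chromosome 7, with changes of −0.74, −0.69 and −0.62. The megabase from 152 Mb met the limit of 30 sites, a mean over both groups, only through its piggyBac counts. Among the windows of the same kind the largest gain was on chromosome X from 112 to 113 Mb, with 37, 27 and 43 sites against 81, 77 and 77 (0.66 ± 0.15, limma adjusted p = 0.00136). Among windows with 0 coding genes, the megabase from 81 Mb on chromosome 2 rose (0.55 ± 0.09, limma adjusted p = 8.53e-06), as did that from 23 Mb on chromosome 6 (0.43 ± 0.08, limma adjusted p = 6.62e-05). The first megabase of chromosome 1 rose by 0.58, and that from 99 Mb on chromosome 11, where CNTN5 lies, by 0.44. The latter was called under only 5 of 16 alternatives and the former under 11.

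Whole chromosomes differed by a few percent. Of 23, limma called 9 (39.1%), 6 higher (26.1%) and 3 lower (13%). Chromosome 20 rose most, from 217 ± 3.3 to 232 ± 2.6 of every 10000 sites (SD, n = 3, 0.09 ± 0.01 log2, SE, limma adjusted p = 2.44e-05), and chromosome 4, which carries PCDH7 and PALLD, fell most, from 742 ± 9.0 to 703 ± 12 (−0.08 ± 0.01, limma adjusted p = 8.8e-05). Chromosomes 17, 18, 19, 21 and 22 were also higher and chromosomes 3 and 12 lower.

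The study also holds a re-engineered hyperactive piggyBac, and the labels do not say whether it carries the same changes. It was set against hyperactive piggyBac with 3 libraries each, all on the wild-type transposon. There, 4.29%, 4.33% and 4.16% of hyperactive sites and 3.28%, 3.26% and 3.14% of re-engineered hyperactive sites lay within 1 kb of a coding start. The share thus fell in both backgrounds, by 1.63 points in the parental and by 1.04 points in the hyperactive form. The difference of 0.597 points between the backgrounds passed the test (permutation of residuals over 924 splits, p = 0.00216, adjusted p = 0.00433 over 10 measures). Of the hyperactive libraries, replicate 1 shared 75.4% of its sites with replicate 2, which in turn shared 76.3% of its own, while sharing with replicate 3 was 28.6% and 28.97%. These linked libraries may not be independent. With them averaged the difference was 0.623 points (permutation adjusted p = 0.00541). The difference between the backgrounds was not computed at matched totals. For sites near the starts of single genes limma called 0 of 1285 differences between the backgrounds, with 148 at an unadjusted p under 0.05. For whole genes it called 9 of 5615 (0.16%), and 3 with the linked libraries averaged.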

How the data were processed

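The members and the gene lists were chosen with earlier results of these data known. Per the submitters' processing notes, cutadapt 3.4 and HISAT2 2.2.1.0 were used with hg38 and GRCh38.p5. The peak caller and any removal of duplicates are not given in the sources used here. The authors deposited 1 peak list per library, with summed coverage and maximum coverage per peak as unscaled signal, from PCR reads without molecular identifiers, so that intervals cover counting error only. A last column with 1 constant per file, unnamed in the deposited lists, was taken as the total of reads. No sample column was left unused (0). A site was the 5′ edge of a peak, shifted by 3 bases on the minus strand, on chromosomes 1 to 22 and X. This rule was checked on opposite peaks: in piggyBac replicate 1, 24682 pairs overlapped by 4 bases, 15 by 3 and 4 by 5. Coding genes (19970) came from RefSeq GRCh38.p14. Samples were grouped by their titles. Library measures were compared by exact permutation with Benjamini-Hochberg adjustment. Genes, bins and chromosomes were fitted with limma 3.58.1 (R 4.3.3, trend), as log2 of sites plus a prior count of 2 over all sites of the library, for features with a mean of 10 sites or more (5 near starts). Genes with an adjusted p under 0.05 were called, and the script was tested on simulated data. Named genes were the 5 with the most sites, the 10 largest called changes each way with a mean of 30 sites or more and non-overlapping groups, and up to 2 called genes per list and direction, or the 2 with the most sites where none was called. Start windows, 3′ ends and the fit without start sites were added after the data were seen.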

Additional observations from a re-analysis of the deposited data

Results flagged for a closer look

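Between the parental and the hyperactive form of the enzyme, 7 library measures differed in how they changed with re-engineering, by a permutation test over 924 splits adjusted over 10 measures. Each value is the change in the hyperactive form minus that in the parental form. For the number of sites it was −0.65 on the log2 scale (permutation adjusted p = 0.00433), since site numbers were higher with re-engineering in the parental form (0.47) and lower in the hyperactive form (−0.18). For sites per 1000000 of the file total it was −5531 (permutation adjusted p = 0.0124). The share of peaks of height 50 or more had a difference of 3.36 points (permutation adjusted p = 0.0108). For the share inside annotated genes it was 1.63 points, with changes of −0.77 and 0.86 in the parental and hyperactive forms. The share within 5 kb of a coding start differed by 0.812 points and that within 1 kb by 0.597 points. Positions hit in both orientations differed by −2.09 points. The last 4 each had a permutation adjusted p of 0.00433. Depth differed in opposite directions too. Mean file totals were 9064044 for piggyBac and 11690566 for the re-engineered enzyme, but 9354714 for hyperactive and 8727245 for re-engineered hyperactive piggyBac. These 7 differences were not computed at matched totals, and the part of depth in them was not tested.

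In 9 coding genes the change differed between the forms by limma, with adjusted p from 6.79e-05 to 0.0469. The difference was −1.62 for PHTF1, −1.98 for CAPN8 and −0.44 for RANBP2 on the log2 scale. It was 0.36 for PCDH7, 0.85 for AFG2A and 1.58 for EBF1. It was 0.97 for AHI1, 0.94 for ATRNL1 and 1.07 for SOX6. PCDH7 was lower with re-engineering in both forms (−0.57 and −0.21), while the other 8 had opposite signs in the parental and hyperactive forms. With the linked hyperactive libraries averaged, 3 genes passed, and at matched totals 9 of 5121 passed. In both cases 0 genes with a negative difference passed, the direction of PHTF1, CAPN8 and RANBP2.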

How the results depend on the processing

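The replicate numbers did not pair the samples: same-numbered libraries correlated at 0.02, 0.02 and 0.02 over genes and at 0.04, 0.05 and −0.01 over 1-Mb windows. With the replicate number as a block, 226 genes, 324 windows, 12 chromosomes and 471 gene starts were called. With fewer sites, fewer genes and starts were called. At equal site numbers 76 genes, 215 windows and 160 starts passed, and with heights of 10 or more 69 genes, 195 windows, 5 chromosomes and 228 starts. At matched totals 140 genes and 258 starts passed, while windows and chromosomes did not become fewer, at 328 and 10. With no filter on low values 40 genes and 43 starts passed, and with a minimum mean of 30 sites 4 of 4 starts. With windows of 5 Mb 148 of 586 passed. On the median ratio scale 7 starts passed. Leaving out 1 library gave 75 to 147 genes and 191 to 306 windows. For the share over 100 kb from any coding gene it gave −0.253 to 0.0329 points, positive without piggyBac replicate 2. Averaging the linked hyperactive libraries left 3 of 9 gene differences between backgrounds. Of 7 named genes that were not called, 5 changed sign. The gene RAD51B was at −0.0152 with heights of 10 or more and at −0.000452 without sites near starts. The gene ARID1B was at −0.0372, −0.0635 and −0.00207 at matched totals, with heights of 10 or more and without sites near starts, and from −0.0404 to 0.0914 without 1 library. The gene CSNK2A1 was at 0.0553 with heights of 10 or more and from −0.255 to 0.0235 without 1 library. The gene PGBD2 was at 0.0248 at matched totals and 0.0717 at equal site numbers, and from −0.0961 to 0.112 without 1 library. The gene RPS10-NUDT3 was at 0.0145 with heights of 10 or more and 0.00860 without sites near starts, and from −0.218 to 0.0643 without 1 library. The causes were not tested. Over the alternatives of library measures and counts, 186 values kept their direction or, for counts, stayed within 1.5 times, 19 counts moved further and 1 value changed sign. For the share within 1 kb of a start the difference ran from −1.99 to −1.54 points. Equal site numbers could give no value for the number of sites or sites per 1000000 of the total. At 3 against 3 libraries no exact p could pass 0.05, so the side of the threshold says nothing about the library measures.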
